A study of Mus musculus with 4 samples.

Results

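Janus kinases (JAKs) and the signal transducers and activators of transcription (STATs) were examined in cultured mouse natural killer (NK) cells through the accessible chromatin regions at their genes. The 9 genes were Jak1, Jak2, Jak3, Tyk2, Stat3, Stat4, Stat5a, Stat5b and Stat6. Every accessible region whose nearest protein-coding gene was 1 of these 9 was taken, which gave 104 of the 91266 regions in the series. Regions were assigned by position alone, and the genes were named with earlier results of these data known.

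The question of the study was whether open chromatin in cultured splenic NK cells differs between a low and a high dose of interleukin-15 (IL-15). ATAC-seq, in which a transposase cuts and tags open chromatin, was performed on 4 samples of wild-type C57BL/6 cells, 2 in the high dose and 2 in the low dose, each after 72 h and from about 75000 cells. The concentrations are not stated, nor is it stated whether cells of several mice were pooled. The deposited tables hold positions only: all accessible regions, and an up list and a down list, which the authors called as differing in accessibility between the doses. They carry no value per sample, so no replicate spread, fold change or p-value can be given and the sequencing depth is unknown. The sources do not say which dose up and down refer to, so neither list is assigned to a dose here. In a bulk sample a shift in the mix of cells and a shift in accessibility per cell cannot be told apart.

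The label of the cells was checked on start sites of marker genes. A window of 300 bases around the transcription start (250 before and 50 from it on) was accessible when a region overlapped it. Of 9 NK cell markers, 8 had a window in the RefSeq table, and all 8 of those (Ncr1, Klrb1c, Klrk1, Eomes, Tbx21, Prf1, Gzmb and Cd244a) had an accessible one. None of the 3 T cell markers with a window (Cd3e, Cd3g and Cd8a) and not the 1 B cell marker with a window (Cd79a) was accessible. Of 2 myeloid markers with a window, Lyz2 was not accessible and Itgam, which mature NK cells also carry, was.

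IL-15 binds a receptor whose beta chain and common gamma chain carry JAK1 and JAK3 on their cytoplasmic tails. These kinases phosphorylate each other, the receptor and chiefly STAT5A and STAT5B, which then pair, enter the nucleus and bind DNA at an element read TTCNNNGAA. NK cells need this route to develop and survive. TYK2 and JAK2 serve other receptors, among them that of IL-12, which acts through STAT4 in NK cells, while STAT3 and STAT6 act downstream of cytokines such as IL-21 and IL-4.

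Of the genes with more than 1 start site, Stat4 alone had one that was accessible and one that was not. The sequences around 5 start sites are shown for this and the 2 contrasts that follow. They are the RefSeq windows of assembly GRCm38.p6, written 5′ to 3′ on the strand of the gene. The 2 windows of Stat4 lie 21.1 kb apart. The upstream one overlapped no accessible region, and the downstream one was covered over 296 of its 300 bases by a region of 1402 bp. Capitals mark the bases from the start site on.
Stat4 upstream start, chr1:51986898-51987197, plus strand: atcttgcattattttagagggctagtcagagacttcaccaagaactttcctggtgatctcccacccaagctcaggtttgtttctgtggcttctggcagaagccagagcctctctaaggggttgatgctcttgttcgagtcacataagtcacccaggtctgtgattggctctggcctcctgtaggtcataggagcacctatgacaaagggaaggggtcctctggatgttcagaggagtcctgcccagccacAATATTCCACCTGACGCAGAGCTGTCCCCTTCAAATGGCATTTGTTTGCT
Stat4 downstream start, chr1:52007990-52008289, plus strand: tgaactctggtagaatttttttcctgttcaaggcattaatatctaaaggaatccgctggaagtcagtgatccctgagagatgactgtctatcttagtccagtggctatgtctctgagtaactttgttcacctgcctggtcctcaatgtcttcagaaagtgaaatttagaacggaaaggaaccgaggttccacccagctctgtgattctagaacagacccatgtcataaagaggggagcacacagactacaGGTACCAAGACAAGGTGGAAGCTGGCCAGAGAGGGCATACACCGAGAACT

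The downstream windows of Stat5a and Stat5b are shown because both were accessible over all 300 bases and because they resemble each other. In local alignments of the 66 pairs of windows of the 9 genes, this pair held the longest block without a gap, 71 bases of which 61 were identical (85.9%). The longest block in any other pair was 42 bases with 57.1% identity. The block ends close to the start site in either gene, at base 249 of the Stat5a window and base 258 of the Stat5b window, where the start site is base 251 (bases are counted from 1 at the 5′ end). Capitals mark the block.
Stat5a downstream start, chr11:100860234-100860533, plus strand: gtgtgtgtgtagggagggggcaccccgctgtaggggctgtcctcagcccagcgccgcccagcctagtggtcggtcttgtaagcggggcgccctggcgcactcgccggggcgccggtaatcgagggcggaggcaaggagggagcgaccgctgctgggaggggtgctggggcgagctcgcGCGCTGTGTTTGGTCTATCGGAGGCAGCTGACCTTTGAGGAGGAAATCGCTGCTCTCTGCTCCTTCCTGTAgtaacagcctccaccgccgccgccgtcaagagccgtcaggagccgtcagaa
Stat5b downstream start, chr11:100822521-100822820, minus strand: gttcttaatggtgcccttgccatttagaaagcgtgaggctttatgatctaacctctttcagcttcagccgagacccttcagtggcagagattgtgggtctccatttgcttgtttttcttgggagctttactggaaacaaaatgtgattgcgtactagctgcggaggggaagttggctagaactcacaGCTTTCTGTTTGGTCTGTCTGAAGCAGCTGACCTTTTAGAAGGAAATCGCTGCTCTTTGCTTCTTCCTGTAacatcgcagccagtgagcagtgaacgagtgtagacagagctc

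The window of Jak1 is shown as the promoter of the gene that held most of the listed regions. It was accessible over all 300 bases and lay in a region on neither list. Capitals mark 1 match of GGGCGG and 1 of TGACGTCA, both strands searched.
Jak1 start, chr4:101265174-101265473, minus strand: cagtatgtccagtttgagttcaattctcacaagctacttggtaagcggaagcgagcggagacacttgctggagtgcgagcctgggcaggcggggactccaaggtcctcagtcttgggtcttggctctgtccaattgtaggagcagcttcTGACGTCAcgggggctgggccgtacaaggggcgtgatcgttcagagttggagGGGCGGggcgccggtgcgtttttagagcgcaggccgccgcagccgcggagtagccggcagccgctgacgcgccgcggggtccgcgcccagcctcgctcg

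Over the 9 genes, 12 start-site windows were tabulated, 2 each for Stat4, Stat5a and Stat5b and 1 for each of the others. Of these, 11 (91.7%, 95% Wilson interval 64.6 to 98.5%) overlapped a region, against 41.6% of all 32851 windows in the table. The upstream window of Stat4 was the exception, and 0 of the 12 lay over a region of either list. Of all windows, 0.539% overlapped a listed region, and of all regions over a window 1.44% were listed, so a count of 0 is close to that background.

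The element TTCNNNGAA was in 0 of the 12 windows, which allows a share of up to 25%, against 8.30% of all windows and 6.50% of the accessible ones. The form bound by STAT6, with 4 bases in place of 3 between TTC and GAA, was likewise in 0 of 12, against 6.95% of all. The strict form TTCCNGGAA, whose matches are also matches of TTCNNNGAA, was in 0 of 12 against 1.15%. Other motifs were searched after the sequences had been seen. GGGCGG, the GC box, was in 7 of 12 windows and in 63.9% of accessible windows. CCAAT was in 4 of 12, 1 of them the Stat4 window that was not accessible, against 37.4% of all windows and 36.6% of accessible ones. TGACGTCA was in the Jak1 window alone, and in 3.18% of accessible windows. CGGAAG was also in the Jak1 window alone, and in 30.9% of accessible windows. All motifs were searched on both strands. These are matches of letters and not binding sites.

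Base composition varied widely among the accessible windows. The window of Stat5b's upstream start held 50 CpG dinucleotides at 82.7% GC, and that of Jak2 held 44 at 81.0%. The accessible window of Stat4 held 4 CpG dinucleotides at 46.0% GC, that of Stat5b's downstream start 7 at 47.3%, and the upstream window of Stat4, which was not accessible, 2 at 50.7%. Over all windows the median was 21 CpG dinucleotides in accessible ones and 3 in the rest. Of the 11 accessible windows of the 9 genes, 5 were closer in CpG count to the median of windows that were not accessible: those of Stat4, Stat6 and Jak3, the upstream one of Stat5a and the downstream one of Stat5b.

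Few of the 104 regions were on the authors' deposited lists. The up list held 1 of them (0.962%, 95% Wilson interval 0.170 to 5.25%), against 4.21% of all regions. The down list held 3 (2.88%, 0.986 to 8.14%), against 1.40%. Either list held 4 (3.85%, 1.51 to 9.47%), against 5.61%. All 3 intervals contain the share over all regions. Intervals cover counting error only, and regions are not replicates. All 4 listed regions were at JAK genes, 3 at Jak1 and 1 at Jak2. Thus 2 of the 9 genes had a listed region, against 20.1% of the 16393 protein-coding genes with any region. That share is not matched on the number of regions, which ran from 3 to 40 in the 9 genes. The median was 3 over genes with any region.

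**Figure D1:**
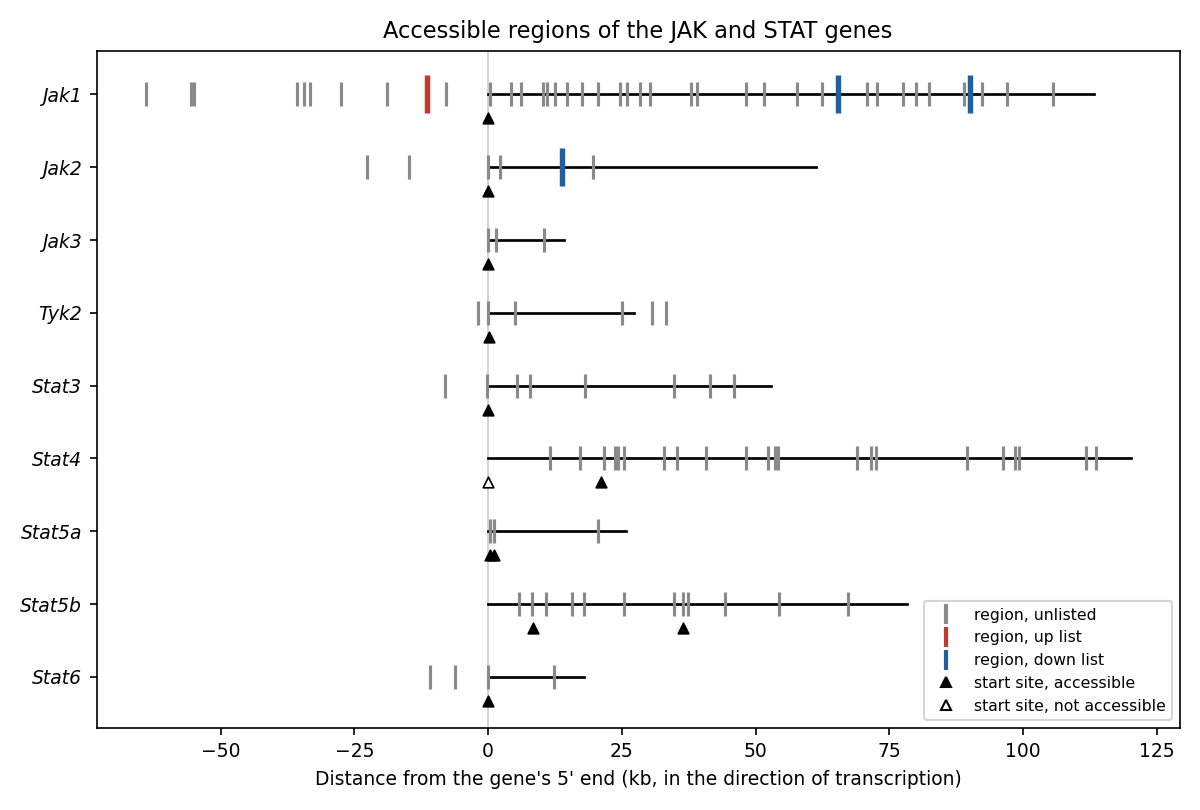
Each tick is the centre of an accessible region, placed by its distance in kb from the 5′ end of its gene in the direction of transcription, with the gene drawn as a line. Blue and red ticks are regions of the down and up lists, and triangles are start sites, filled where accessible. The 3 down ticks lie inside Jak1 and Jak2, the up tick lies before Jak1, and the upstream start of Stat4 is the open triangle.

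Among the kinases, JAK1 is the partner of the IL-15 receptor's beta chain and of many other cytokine receptors. Its gene (chr4:101151974-101265282, minus strand) was assigned 40 regions, more than those of 99.5% of protein-coding genes. Of these, 30 lay inside the gene and 10 upstream, from 7.6 to 63.9 kb before it. The density inside the gene was 2.65 regions per 10 kb, against a median of 0.61 over the 13962 genes of at least 10 kb. The regions covered 15.3% of the gene, the highest share of the 9, and the longest stretch of the gene without one was 8.4 kb.

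The down list held 2 regions inside Jak1. The first, chr4:101199484-101200428, was 945 bp wide, with its centre 65.3 kb from the 5′ end of the gene. The second, chr4:101174779-101175663, was 885 bp wide and centred 90.1 kb from the 5′ end. They lay 23.8 kb apart with 6 unlisted regions between them, and the nearest neighbours of each on either side were unlisted. An unlisted region of 548 bp, chr4:101176066-101176613, began only 402 bp after the second. Both were wide, above 89.1% and 87.0% of all regions or equal to them in width. By nearest gene end these 2 regions would go to Raver2, whose 3′ end overlaps that of Jak1.

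The up list held 1 region of Jak1, chr4:101276539-101277008, of 470 bp, at 11.3 kb before the gene. Among genes of any kind a small nuclear RNA gene, Gm25124, is nearer to it, at 5233 bp. It lay 76.1 kb from the nearer down region with 20 unlisted regions between, the region over the start site among them. The region at the start site, chr4:101264447-101265547, of 1101 bp, was on neither list, and neither was the widest region of the gene, chr4:101291973-101293705, of 1733 bp at 26.7 kb upstream. A further down region of 262 bp, chr4:101149531-101149792, lay 2.2 kb beyond the 3′ end of Jak1, inside the neighbouring gene Raver2, and is not counted for Jak1, although the end of Jak1 is the gene end nearest to it.

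Listed regions are frequent at genes with many regions, so these numbers were set beside the background. Of the 109 genes with 40 or more regions, 93.6% had at least 1 listed region, 35.8% had at least 2 down regions and 44.0% had regions of both lists. Jak1 was 1 of many such genes in each respect. Exons and introns were not annotated here, so the regions inside genes are not divided between them.

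**Figure D2:**
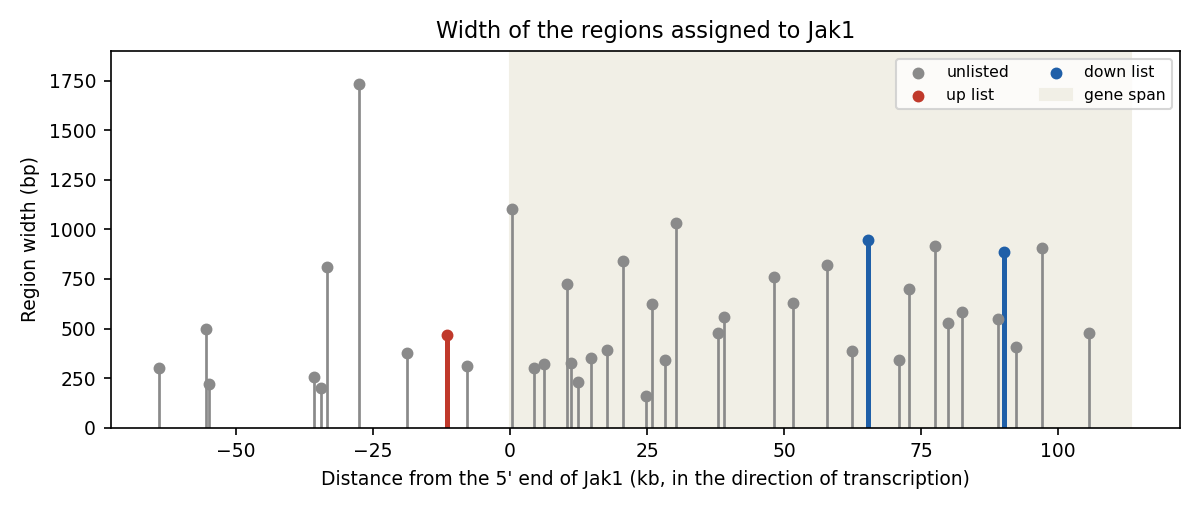
Each stem is 1 of the 40 regions assigned to Jak1, placed by its distance in kb from the 5′ end of the gene, with its width in bp as height. Shading marks the gene. The down regions of 945 and 885 bp lie in the part of the gene away from the start, and the up region of 470 bp lies before it.

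JAK2, which serves receptors of interferon gamma, IL-12 and growth hormone, had 6 regions at its gene (chr19:29251803-29313095, plus strand). Their widths were 216, 756, 1148, 355, 569 and 482 bp in order along the chromosome. The region of 569 bp, chr19:29265271-29265839, was on the down list (1 of 6), with its centre 13.8 kb inside the gene. The nearest other listed region was 350.2 kb away, an up region assigned to Slc1a1. The 4 regions inside Jak2 were all in its first 21 kb, and the remaining 41.5 kb of the gene, 67.7% of its length, held none. Its density, 0.65 per 10 kb, was the lowest of the 9 genes and close to the median of 0.61. Of the 6870 genes with 3 to 8 regions, 3.71% had a down region and 20% had any listed region.

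JAK3, which binds the common gamma chain and is largely confined to blood cells, has a short gene of 14.2 kb (chr8:71676383-71690577, plus strand). It had 3 regions, of 727, 315 and 289 bp, all inside the gene and none listed. Its density was 2.11 per 10 kb, above that of 94.5% of genes of at least 10 kb. An up region of 202 bp, chr8:71670679-71670880, lay 5.5 kb before Jak3 but inside the neighbouring gene Unc13a, to which it was assigned.

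TYK2, the kinase of the type I interferon and IL-12 receptors, had 6 regions, of 662, 741, 290, 505, 708 and 431 bp along the chromosome, none listed. Of these, 3 lay inside the gene (chr9:21104068-21131393, minus strand), 1 upstream and 2 downstream. Tyk2 was the only one of the 9 genes with regions assigned beyond its 3′ end. The nearest listed region was 93.6 kb from the gene, an up region assigned to Keap1.

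The 5 STAT genes together had 49 regions, and 0 of them were listed. A count of 0 in 49 allows a share of up to 6.12%, which is above the 4.21% and 1.40% of all regions that were up and down. A share of listed STAT regions below the background could therefore not be detected. The 4 JAK genes had 4 of 55 regions listed (7.27%, 2.86 to 17.3%), against 5.61% of all regions, an interval that overlaps what a count of 0 in 49 allows. Of the 55, 3 were down (5.45%, 1.87 to 14.9%), an interval above the 1.40% of all regions, and 1 was up (1.82%, 0.322 to 9.61%). Jak1 supplied 2 of these 3 down regions, and regions of 1 gene are not independent. With regions given to the nearest gene end instead, 2 of 46 were down (4.35%, 1.20 to 14.5%), an interval that contains 1.40%.

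Stat5b, Stat5a and Stat3 lie side by side on chromosome 11 within 158.9 kb (100780731 to 100939594). This stretch held 22 regions, all unlisted, and the nearest listed region was 386.6 kb away, an up region assigned to Jup. Stat5b and Stat5a, whose products carry the main signal of IL-15, lie on opposite strands, pointing away from each other, with 346 bp between their annotated spans. The upstream start of Stat5b in the promoter table lies 8.4 kb inside its span. Of the 2123 genes with 9 to 19 regions, 49.7% had a listed region and the rest had none. Stat5b had 12 regions, all inside the gene, with widths from 166 to 1402 bp and none listed. The widest, chr11:100850110-100851511, covered its upstream start. A region of 506 bp, chr11:100822325-100822830, covered the downstream start, 28.0 kb further along the gene, whose window is printed above.

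Stat5a had 3 regions, all inside the gene, of 220, 719 and 381 bp. The first 2 lay at its start sites, which are 828 bp apart. The first covered 154 of the 300 bases of the upstream window, and the second covered all of the downstream window. The 18.9 kb that followed, 73.2% of the gene, held no region. Stat3, which encodes the main transducer of IL-21 and of the IL-6 family, had 8 regions of 197 to 992 bp. The widest, chr11:100939231-100940222, lay over its start. Of the 8, 7 were inside the gene and 1 was 8.0 kb upstream.

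Stat4, which encodes the transducer of IL-12, had 22 regions (chr1:51987106-52107189, plus strand), more than those of 97.2% of genes. All 22 were inside the gene, and their widths ran from 154 to 1402 bp. The first began 11.5 kb after the upstream start, and 2 regions lay before the downstream start, 1 over it and 19 after it. The widest, chr1:52007994-52009395, was the one over the downstream start. A region of 1133 bp, chr1:52034664-52035796, was the next widest. None of the 22 was listed. Of the 648 genes with 20 to 39 regions, 74.7% had at least 1 listed region and 34% had a down region. The rest of those genes likewise had none listed, and the difference was not tested.

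Stat6, which encodes the transducer of IL-4 and IL-13, had 4 regions, of 679, 218, 2371 and 839 bp along the chromosome. The region over its start, chr10:127641815-127644185, was the widest of the 104, and only 50 of all 91266 regions were at least as wide. None of the 4 was listed. The nearest listed region was 56.3 kb away, an up region assigned to Lrp1.

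Regions of the 9 genes lay inside genes more often than regions in general. The share was 82.7% (86 of 104, 95% Wilson interval 74.3 to 88.8%), against 61.1% of all regions. It was 93.9% (83.5 to 97.9%) for the STAT genes and 72.7% (59.8 to 82.7%) for the JAK genes, where the 10 upstream regions of Jak1 weigh most. The interval of the JAK genes contains the 61.1% of all regions, and that of the STAT genes lies above it. Within 1000 bp of a gene end lay 8 of the 104 regions (7.69%, 3.95 to 14.4%), against 16.9% of all regions. Long genes such as Jak1 and Stat4 hold many regions away from their ends, and the part of gene length in these shares was not tested.

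Widths of the 104 regions had a median of 479.5 bp (quartiles 322 and 704 bp, range 154 to 2371 bp), against 400 bp for all regions. Wider than that overall median were 66 of them (63.5%). The 11 regions over start-site windows had a median of 992 bp and the other 93 one of 468 bp. For all regions the corresponding medians were 928 and 362 bp. The upstream start of Stat5a, at 220 bp, had the narrowest region of the 11. The listed regions of 945, 885, 569 and 470 bp were neither the widest nor the narrowest of their genes.

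**Figure D3:**
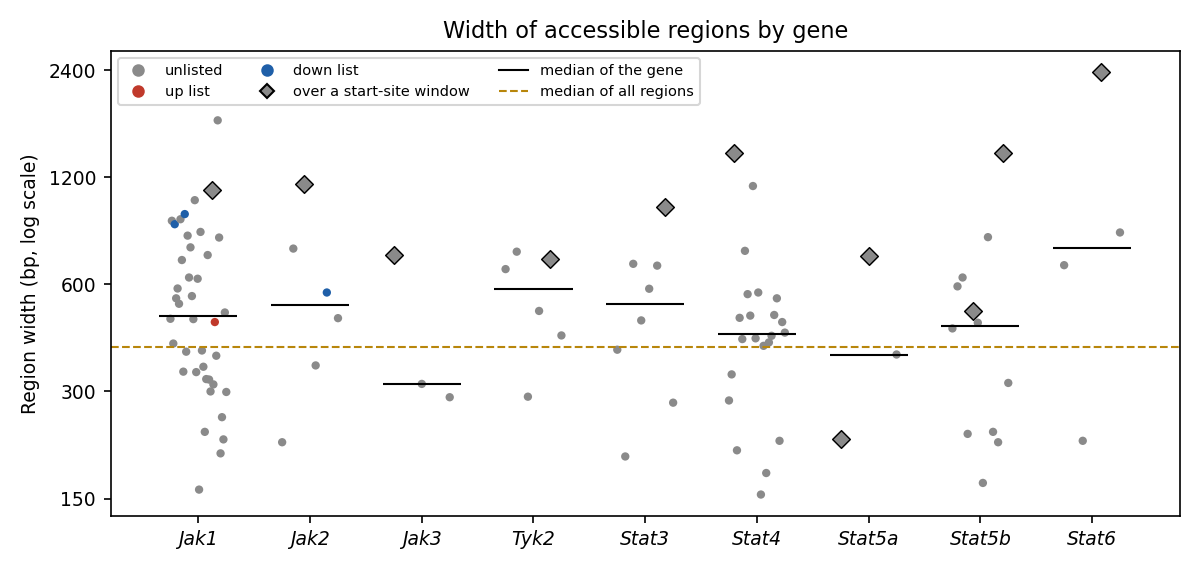
Each point is the width in bp, on a log scale, of 1 of the 104 regions, grouped by gene in chromosome order. Diamonds are regions over a start-site window, lines are the medians of the genes, and the dashed line is the median of all regions, 400 bp. In 7 of the 9 genes the median lies above the dashed line, and the region over the start of Stat6 stands highest at 2371 bp.

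The other genes of the pathway were taken from a list of 64, grouped by role, which was written with earlier results of these data known. All 64 were assigned at least 1 region, 645 in total. At least 1 up region was found at 10 of them and at least 1 down region at 12, with 1 gene (Socs6) in both counts. Of the 16393 genes with any region, 16.1% had an up region and 5.39% a down region. These shares are not matched on the number of regions, whose median was 7 for the pathway genes and 3 for genes with any region, and genes with more regions more often have a listed one. Of the 645 regions, 1.86% (1.07 to 3.22%) were up and 3.10% (2.02 to 4.74%) were down, against 4.21% and 1.40% of all regions.

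Of 22 genes for chains of cytokine receptors that use JAKs, 8 had a down region and 1 an up region, with 13 down and 2 up among their 203 regions (6.40%, 3.78 to 10.6%, and 0.985%, 0.271 to 3.52%). The down interval lies above the 1.40% of all regions and the up interval below the 4.21%. No conclusion is drawn from this, since the list was written with earlier results of these data known. Neighbouring regions are also not independent, no test was made, and Ifngr1 alone supplied 4 of the 13 down regions. Among all genes, 3.71% of those with 3 to 8 regions and 34% of those with 20 to 39 regions had a down region. The chains that carry JAK1 and JAK3 at the IL-15 receptor each had 1 down region inside the gene, of 1326 bp at Il2rb (1 of 12 regions) and of 230 bp at Il2rg (1 of 3). Il15ra, the chain that presents IL-15, had 0 of 3 regions listed.

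Ifngr1, a chain of the interferon gamma receptor, had 4 of 26 regions down, the most of the 22 genes. Of these 4, 2 lay inside the gene and 2 lay 74.7 and 86.8 kb from it. Il7r and Il23r, receptor chains of IL-7 and IL-23, had 2 down regions each, and Il4ra, Il10ra and Il10rb had 1 each. The Il10rb region lay 24.1 kb from the gene. Lifr, the receptor chain of leukaemia inhibitory factor, had 2 of 8 regions up and 0 down. Of these 2, 1 lay inside Lifr and 1 lay 104.0 kb from it. Counting regions inside or within 10 kb of a gene, 7 receptor chain genes had a down region and 2 an up region.

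Regulators of the pathway were listed at close to the background. Their 208 regions held 8 up (3.85%, 1.96 to 7.40%) and 1 down (0.481%, 0.0849 to 2.67%), against 4.21% and 1.40% of all regions. Of the 8 genes of CIS and the SOCS proteins, which block JAKs and receptors as feedback, Socs2 and Socs5 had 1 up region each and Socs6 had 2 up and 1 down. All 5 lay outside the genes, from 5.7 to 127.4 kb away. Cish, Socs1 and Socs3, textbook targets of STATs, had 0 of 5, 0 of 11 and 0 of 8 regions listed.

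The 5 phosphatase genes had 0 of 95 regions down, which allows a share of up to 3.16%, above the 1.40% of all regions. Up were 3 of 95 (3.16%, 1.08 to 8.88%), an interval that contains the 4.21% of all regions. The 3 were at Ptpn1, whose region of 345 bp was inside the gene, Ptpn11, whose region was 29.2 kb away, and Ptprc, whose region was 23.2 kb away. Within 10 kb of the gene, 1 of the 5 had an up region. Of 9 genes of PIAS, SH2B and STAM proteins, which modify STATs or bind JAKs, only Sh2b2 had a listed region, which was up.

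Of the cytokine genes, Il21 had 1 of 6 regions down, 17.1 kb from the gene, and the other 5 genes had none listed. That is 1 of 28 regions (3.57%, 0.633 to 17.7%), an interval that contains the 1.40% of all regions. Within 10 kb, 0 of the 6 genes had a down region. Stat2 and Irf9, which act together downstream of type I interferon, had 2 and 1 regions, none listed. Among 11 genes widely known as STAT5 targets, Bcl2, a survival factor, had 3 of 43 regions down, all inside the gene. Myc had 2 of 74 down, each more than 500 kb from the gene. Of genes with 40 or more regions, 35.8% had at least 2 down regions. Over the 11 genes 5 of 199 regions were down (2.51%, 1.08 to 5.75%), an interval that contains the 1.40% of all regions. Up were 2 of 199 (1.01%, 0.276 to 3.59%), an interval below the 4.21% of all regions. Of these 2, 1 lay inside Ccnd3 and 1 lay 11.2 kb from Mcl1. The 11 genes were chosen with earlier results of these data known, and no test was made.

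**Figure D4:**
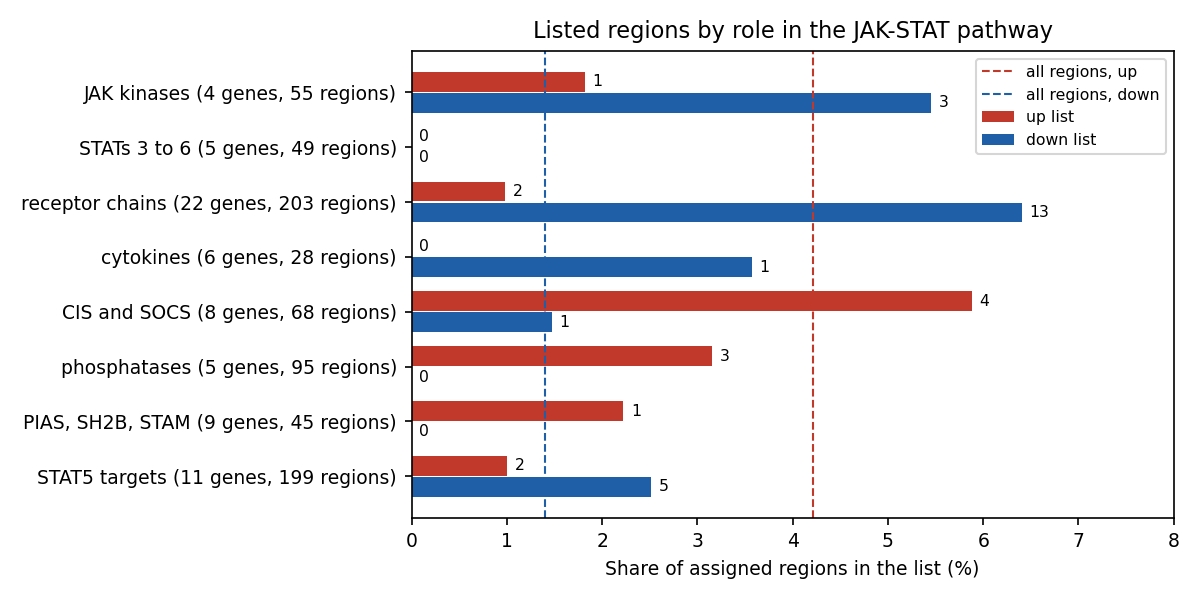
Bars give the share in percent of the regions assigned to each group that were on the up list (red) or the down list (blue), with the number of regions beside each bar. Dashed lines are the shares over all regions, 4.21% up and 1.40% down. The blue bar is the longer one for JAK kinases, receptor chains, cytokines and STAT5 targets, and the red bar for the 3 groups of regulators, of which only CIS and SOCS genes pass the red line. STATs 3 to 6 have no bar.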

How the data were processed

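ATAC-seq of 4 NK cell samples was analysed from 3 deposited tables. The full list gives, per the deposited table, each region's position and its width in bp, and the authors' deposited up and down lists give positions alone. The submitters' processing notes name BWA, ArchR, MACS2, HOMER 4.11.1 and the mm10 build, with no role or order. Whether the authors pooled samples for peak calling, and which test and threshold gave their lists, is not given in the sources used here.

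Starts in the full list were raised by 1 (all coordinates are 1-based), after which all 3845 up and 1275 down regions were identical to a region of the full list. Each region was assigned to the nearest of 21887 protein-coding genes of RefSeq GRCm38.p6 by distance to the gene span, with ties to the nearer end. All 9 genes matched the gene and promoter tables by symbol. Strand and start sites came from the promoter table. Windows were aligned in pairs with Biopython 1.88 (local, match 2, mismatch -2, gap -5 and -1). Assignment was tested on simulated regions placed between genes, and the motif search on planted TTCNNNGAA. Regions inside genes, ties and the other motifs were not tested in this way. Shares carry 95% Wilson intervals, and the limit for a count of 0 is 3 counts of the total.

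The test of counts planned for files with values per sample could not be made. The genes and lists were chosen with earlier results of these data known. All 9 genes, every pathway gene with a listed region and neighbouring genes are named. Other pathway genes, and the genes of the listed regions closest to each locus, were singled out after their values were seen. Some members of the pathway list are counted but not reported individually here. Alternatives varied the assignment rule, the overlap required to match a listed region, width, distance to gene ends, motif and genes included.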

Additional observations from a re-analysis of the deposited data

How the results depend on the processing

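No paired analysis was possible because the tables list positions without a value for any sample, and for that reason leaving out replicates, another normalization, count filters and stricter thresholds were not run. Of 32 alternatives for results over all 9 genes or the pathway list, 24 stayed close to the reported value (within 1.5 times for counts, the 95% interval for shares, 1 SD for widths) and 8 moved. Some of the 24 could not move, so the tally overstates stability. Matching listed regions by overlap had to give the same counts, since every listed region was identical to a region of the full list. The strict motif form had to stay at 0, since its matches are also matches of TTCNNNGAA. Among the close ones, regions within reach of a gene end rose from 7.69 to 12.5% at 3000 bp, and pathway genes with a down region went from 12 to 8 within 10 kb. The 104 regions became 179 when every region within 50 kb of a gene counted, 66 when only regions wider than the overall median counted and 64 without Jak1. The single up region became 0 when only regions inside genes counted, 0 when genes of any biotype were allowed (an snRNA gene, Gm25124, is nearer to it) and 0 without Jak1, and it became 2 within 50 kb. Within 10 kb the count stayed at 1 but the region was another: Jak1 then had 0 up and 3 down regions, the third down region being the one in Raver2, and the up region was that in Unc13a, counted for Jak3. By nearest gene end the 3 down regions became 2: both inside Jak1 went to Raver2, and Jak1 gained the one in Raver2. The 3 became 1 without Jak1, where 1.56% of 64 regions were down, close to the 1.40% of all regions. Counts of single genes moved in 18 of 62 alternatives: Jak3 went from 3 regions to 7 within 10 kb and 23 within 50 kb, Stat5a from 3 to 19 within 50 kb, and Tyk2 from 6 to 3 inside the gene. The Jak1 settings were chosen after the data were seen. Jak1 thus supplied 3 of the 4 listed regions, too few for any share to be precise.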

Other observations

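The surroundings of the 9 genes were counted as well, in the 500 kb on either side of each gene, or of the Stat5b, Stat5a and Stat3 block. These flanks are not separate from the 104 regions. They include those assigned to the genes from outside, such as the 10 upstream of Jak1. Summed over the 7 loci, the authors' deposited lists held 15 up (2.35%) and 5 down (0.782%) of 639 regions, against 4.21% and 1.40% of all regions. Around Stat6 there were 7 up and 0 down regions among 114, or 6.14% listed against 5.61% of all regions, and around Jak1 2 up and 1 down among 46, or 6.52%. Of the 2 up regions around Jak1, 1 is the region assigned to Jak1 itself, already among the 104. Around Tyk2 there were 1 up and 3 down among 116, and around Jak3 2 up and 1 down among 99. The other loci had 1 up and 0 down each, among 78 regions around Jak2, 83 around Stat4 and 103 around the Stat5b, Stat5a and Stat3 block. No test was made of these shares.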
